A study of Mus musculus with 11 samples.

Results

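Motor neurons of the lateral motor column (LMC) that send their axons into the radial nerve were compared with motor neurons of cervical segments C3 to C5 that carried only a green fluorescent reporter. The comparison takes the 3 arrays titled as LMC radial motor neurons against the 4 titled as segment c3-c5 GFP-only motor neurons, so 7 of the 11 arrays of the series; the other 4 arrays are phrenic motor neurons. All cells came from C57/BL6 embryos that carried Hb9::GFP, a transgene in which the promoter of Hb9 (the gene Mnx1) drives GFP in motor neurons. In trunk explants, dextran-tetramethylrhodamine was taken up backwards along the radial nerve for the LMC radial cells and along the phrenic nerve for the phrenic cells, and motor neurons were sorted by FACS after the spinal cord was dissociated. The label gives the stage only as embryos. The LMC radial titles name no segment, so segmental level and motor neuron type cannot be told apart in these differences, and the C3-C5 GFP-only group is defined by a segment and a missing tracer rather than by a target. The description field calls the C3-C5 cells rhombomere cells and the LMC radial cells LMLl cells, and the groups used here follow the titles. No label says whether replicates came from separate litters or dissections, so p-values measure the spread between these arrays, which may be technical.

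Spinal motor neurons are arranged in columns. Neurons of the lateral motor column innervate limb muscle and express Foxp1 and the retinoic acid synthesising enzyme Aldh1a2, and the neurons of its lateral division, which project dorsally in the limb as the radial nerve does, also express Lhx1. Neurons of the medial motor column innervate axial muscle and keep Lhx3 and Lhx4, LIM homeodomain factors that most other motor neurons switch off. Position along the neck and trunk is recorded by Hox genes, with lower paralog numbers expressed further forward, Hox5 proteins acting in cervical motor neurons, and Hox6 to Hox9 proteins in brachial and thoracic ones.

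RNA was hybridised to Affymetrix mouse arrays, and values are RMA summaries on the log2 scale, where a difference of 1 is 2-fold. Of 45037 probe sets tested, 847 were higher and 847 lower in LMC radial cells at an adjusted p under 0.05 in limma. Leaving out C3-C5 GFP-only replicate 2 or 3 brought the total of 1694 to 699 or 606, leaving out LMC radial replicate 1, 2 or 3 brought it to 763, 807 or 993, and leaving out phrenic replicate 4 gave 2654. Centring each array on its median turned this even split into 1220 higher and 684 lower, with the median of all probe sets at 0.09. With 1 probe set per gene, the one with the highest mean over all arrays, 309 of 18193 genes (1.7%) were higher and 369 (2.03%) lower, and in all 678 the LMC radial arrays lay beyond every C3-C5 GFP-only array. The LMC radial arrays lay above all C3-C5 GFP-only arrays in 2045 of all genes (11.2%) and below them all in 2116 (11.6%). The genes that were lower changed by more and were brighter. Both group means were below 5, which was taken as dim because the files hold no detection calls, for 203 (65.7%) of the higher genes and for 17 (4.6%) of the lower ones. A gene's value is that of 1 probe set. As the mean over all probe sets of a gene, 116 of 130 named genes that passed still did. The 14 that did not, and genes whose difference shrank by more than 1.5 times, are given with their means below. Among genes with a mean of at least 5 in either group, 64 were at least 2-fold higher and 215 at least 2-fold lower. A fold is given as a lower limit, with values under 5 raised to 5, where 1 group mean was under 5. It is not given where both were.

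**Figure D1:**
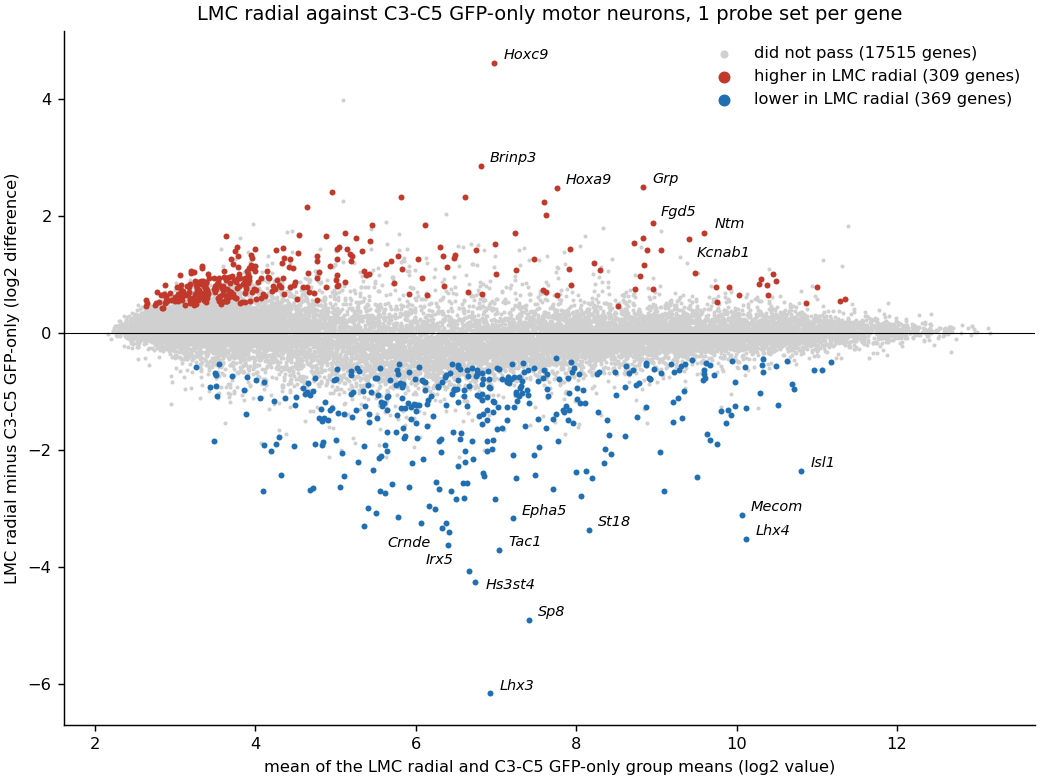
Each point is 1 of 18193 genes; the horizontal axis is the mean of both group means and the vertical axis the log2 difference, LMC radial minus C3-C5 GFP-only. The 309 genes that were higher (red) crowd at low values, the 369 that were lower (blue) spread over the whole range, and Lhx3 at -6.16 and Hoxc9 at 4.62 lie furthest from 0.

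Replicate arrays correlated at 0.987 or above within both types. Array medians lay at 4.48 to 4.51 in LMC radial and at 4.55 to 4.63 in C3-C5 GFP-only arrays. The 25th percentiles went the other way, at 3.32 to 3.38 and 3.18 to 3.29. The types did not overlap in either measure, and its part in the calls among dim genes was not tested. Among the C3-C5 GFP-only arrays, replicates 2 and 3 had an Actb 3′ minus 5′ difference, a measure of RNA truncation, of 1.98 and 1.79, against 1.29 and 1.07 in replicates 1 and 4 and 1.01 to 1.12 in the LMC radial arrays. In the phrenic arrays the Actb difference was 1.05, 1.71, 2.15 and 1.96 in replicates 1 to 4. Without replicates 2 and 3 of both C3-C5 GFP-only and phrenic, 98 probe sets passed. That fit keeps phrenic replicate 4 and has fewer arrays, so it cannot separate truncation from the smaller number of arrays. With the Actb difference as a covariate 550 passed. The phrenic arrays enter the fit for the estimate of the spread. In a fit of the LMC radial and C3-C5 GFP-only arrays alone 3676 probe sets passed, 1457 higher and 2219 lower. That fit's adjusted p is given below for genes that passed there and not with all arrays. The motor neuron markers Slc18a3 and Prph were present in both types. Slc18a3, the vesicular acetylcholine transporter, read 7.75, 7.72 and 7.85 in LMC radial and 8.68, 8.0, 7.97 and 8.21 in C3-C5 GFP-only arrays. Prph, the intermediate filament peripherin, read 11.45, 11.57 and 11.64 and 11.79, 11.67, 11.60 and 11.35. Chat, another such marker, was dim in LMC radial arrays, with a mean of 4.92 against 5.69 in C3-C5 GFP-only arrays. Its difference did not pass (adjusted p = 0.0747). The markers Isl1, Isl2 and Mnx1 were lower in LMC radial arrays, as given below. Pou4f1, a sensory neuron marker, was high in both types, at 9.51, 9.52 and 8.33 and 9.02, 9.30, 8.79 and 9.84, and its part in the results was not tested. In bulk samples, fewer cells of a kind and less RNA per cell cannot be told apart.

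Lhx3 and Lhx4 were the medial column factors with the strongest loss of signal. Lhx3 (probe set 1425041_at) read 3.63, 4.01 and 3.91 in the LMC radial arrays and 9.86, 10.09, 10.17 and 9.92 in the C3-C5 GFP-only arrays. The LMC radial values lay below the array medians and the groups were far apart: the log2 difference was -6.16 ± 0.51 (SE), at least 32.3-fold lower (adjusted p = 0.000173). Lhx4 read 8.62, 8.25 and 8.23 against 11.83, 11.85, 11.92 and 11.93, 11.5-fold lower (-3.52 ± 0.35 (SE), adjusted p = 0.000541). On this probe set Lhx4 remained well above the array medians in the LMC radial cells, although every value there was below every C3-C5 GFP-only value. The other Lhx4 probe set read 3.43, 3.34 and 3.35 against 7.04, 6.81, 6.85 and 6.18. Its LMC radial values lay below the array medians, so the probe sets disagree on whether Lhx4 signal remained. Both probe sets of each gene were lower. Phrenic cells lay at a mean of 5.11 for Lhx3 and 8.66 for Lhx4.

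The sequences just before the start sites of genes at both ends of the comparison are shown for some of the genes with large differences that RefSeq's table holds: Lhx3 and Lhx4 of the LIM family, Crnde of the Iroquois locus, and Hoxa9. Each is the 250 bases before the start in GRCm38.p6, 5′ to 3′ on the strand of the gene; capitals mark a match to TGATTNAT, the site of paired Hox and Pbx proteins, on either strand (its reverse is ATNAATCA). TAATTA, a core bound by many homeodomain proteins, was searched too and occurs in none of them. It occurs in 4.85% of 32817 such windows, and TGATTNAT in 2.83%.
Lhx3, chr2:26208250-26208499, minus strand: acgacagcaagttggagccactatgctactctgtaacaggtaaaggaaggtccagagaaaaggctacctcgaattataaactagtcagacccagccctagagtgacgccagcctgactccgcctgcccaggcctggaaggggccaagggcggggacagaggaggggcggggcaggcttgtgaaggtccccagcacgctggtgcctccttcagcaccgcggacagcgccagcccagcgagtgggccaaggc
Lhx4, chr1:155742028-155742277, minus strand: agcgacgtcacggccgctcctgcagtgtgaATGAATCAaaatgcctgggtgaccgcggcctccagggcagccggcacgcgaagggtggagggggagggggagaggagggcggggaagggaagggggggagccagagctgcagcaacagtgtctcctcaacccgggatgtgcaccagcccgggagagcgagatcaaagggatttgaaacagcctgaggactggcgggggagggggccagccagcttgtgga
Crnde, chr8:92356121-92356370, minus strand: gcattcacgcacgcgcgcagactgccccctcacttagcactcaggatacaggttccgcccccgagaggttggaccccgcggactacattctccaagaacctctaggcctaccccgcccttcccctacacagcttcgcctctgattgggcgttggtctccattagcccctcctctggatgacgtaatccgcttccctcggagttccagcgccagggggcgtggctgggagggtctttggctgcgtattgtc
Hoxa9, chr6:52227371-52227620, minus strand: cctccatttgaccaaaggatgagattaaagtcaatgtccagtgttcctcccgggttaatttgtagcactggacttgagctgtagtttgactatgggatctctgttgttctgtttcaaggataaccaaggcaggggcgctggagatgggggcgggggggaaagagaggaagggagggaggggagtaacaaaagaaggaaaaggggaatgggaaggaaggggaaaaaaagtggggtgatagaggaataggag
The Lhx4 window alone held a match, and a match is a description of letters, not of binding. The windows of Lhx3, Lhx4 and Crnde have a GC content of 62.0%, 66.0% and 62.0% and 11, 14 and 17 CG dinucleotides, and that of Hoxa9 has 49.6% and 3, against a median of 52.4% and 6 over all windows. Windows of Irx3 and Hs3st4 were searched too, are not shown and held neither motif. They have a GC content of 56.0% and 82.0% and 13 and 43 CG dinucleotides.

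Among the 17 measured genes of the LIM family and the motor neuron determinants, 8 were lower, against 2.03% of all genes, and none was higher. The median difference was -1.05 against 0.01 over all genes. Lmo4, a LIM-only protein that competes for LIM cofactors, read 5.17, 5.27 and 4.83 against 7.72, 7.79, 7.84 and 7.85 (-2.71 ± 0.19 (SE), adjusted p = 6.95e-05), with no overlap. Nkx6-1, a homeodomain factor of motor neuron progenitors and of some motor pools, read 4.66, 4.51 and 4.89 against 7.69, 7.68, 7.38 and 7.86, at least 6.28-fold lower (adjusted p = 0.000134). Lmo1, another LIM-only protein, differed by -1.63 ± 0.21 (SE) (adjusted p = 0.00265). The general motor neuron factors were lower too. Mnx1, whose promoter drives the reporter used for sorting, read 8.20, 8.16 and 8.06 against 9.17, 8.94, 9.24 and 8.93 (-0.93 ± 0.11 (SE), adjusted p = 0.00193). Isl2 differed by -1.05 ± 0.18 (SE) (adjusted p = 0.01). The Isl2 call was lost with the Actb difference as a covariate (adjusted p = 0.0541) and with the mesenchyme list mean, given below, as one (adjusted p = 0.0752).

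Isl1, which is needed for motor neuron identity and marks the medial division of the LMC, read 10.92, 9.71 and 8.26 in LMC radial and 11.88, 11.97, 12.02 and 12.08 in C3-C5 GFP-only arrays. The C3-C5 GFP-only arrays were tight and the LMC radial arrays fell over a wide range, with replicate 3 lowest. The difference was -2.36 ± 0.45 (SE) (adjusted p = 0.0177), and the call was lost without LMC radial replicate 2 or C3-C5 GFP-only replicate 2 or 3 (adjusted p up to 0.0602). It was also lost with the Actb difference as a covariate (adjusted p = 0.0691). A second probe set differed by -4.14 (adjusted p = 0.00223). Replicate 3 of LMC radial was also the lowest of its group for Igf2, Irx5, Irx3, Dync1i1 and Pcdh17. The delta protocadherin Pcdh17 read 7.72, 6.11 and 3.72 against 7.63, 7.71, 7.80 and 8.26, which did not pass (adjusted p = 0.136) except without LMC radial replicate 1 (adjusted p = 0.0255).

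Lhx1, which directs lateral LMC axons dorsally, was higher in all 3 LMC radial arrays, at 11.85, 11.64 and 11.63 against 10.30, 10.47, 10.37 and 10.66. Its difference of 1.25 ± 0.41 (SE) did not pass (adjusted p = 0.121), passed without phrenic replicate 4 (adjusted p = 0.0288) and in the fit of both types alone (adjusted p = 0.00154), and its second probe set passed at 2.11 (adjusted p = 0.00856). Lmo3, of the same LIM-only family, read 11.92, 11.94 and 11.81 against 10.76, 10.75, 10.76 and 10.72 and likewise passed with both types alone (adjusted p = 0.000625, against 0.092 with all arrays) and without phrenic replicate 3 or 4 (adjusted p down to 0.00423). For both genes the 2 types did not overlap, and the phrenic means of 8.79 and 7.76 lay below both. Ldb2, a cofactor that LIM proteins bind, read 7.13, 6.65 and 6.15 against 7.60, 8.66, 8.66 and 7.94, with adjusted p = 0.234 over all arrays, 0.0228 with both types alone and 0.0145 without phrenic replicate 4.

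The wider list of medial and hypaxial column genes held 9 lower and no higher genes among 12, against 2.03% lower among all genes. The LMC radial arrays lay below all C3-C5 GFP-only arrays in all 12, against 11.6% of all genes, and the median difference was -2.53. Its genes were chosen with earlier results of these data known. This list shares Lhx3, Lhx4, Lmo4, Isl1, Isl2 and Mnx1 with the LIM list. Of the others, Mecom (Evi1), a zinc finger factor of the medial and hypaxial columns, read 8.20, 9.19 and 8.12 against 11.56, 11.57, 11.74 and 11.61 (-3.12 ± 0.27 (SE), adjusted p = 0.00024). Its relative Prdm16 read 4.89, 5.75 and 4.94 against 7.55, 7.88, 8.25 and 8.40 (-2.83 ± 0.32 (SE), adjusted p = 0.00127). The helix-loop-helix factor Ebf2 differed by -2.84 ± 0.54 (SE) (adjusted p = 0.0182), and the call was lost without LMC radial replicate 1 or 3 or C3-C5 GFP-only replicate 2 or 3 (adjusted p up to 0.0742). None of these groups of arrays overlapped. Over all their probe sets the mean differences of Mecom, Prdm16 and Ebf2 were -1.01, -1.12 and -1.40, and these passed.

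**Figure D2:**
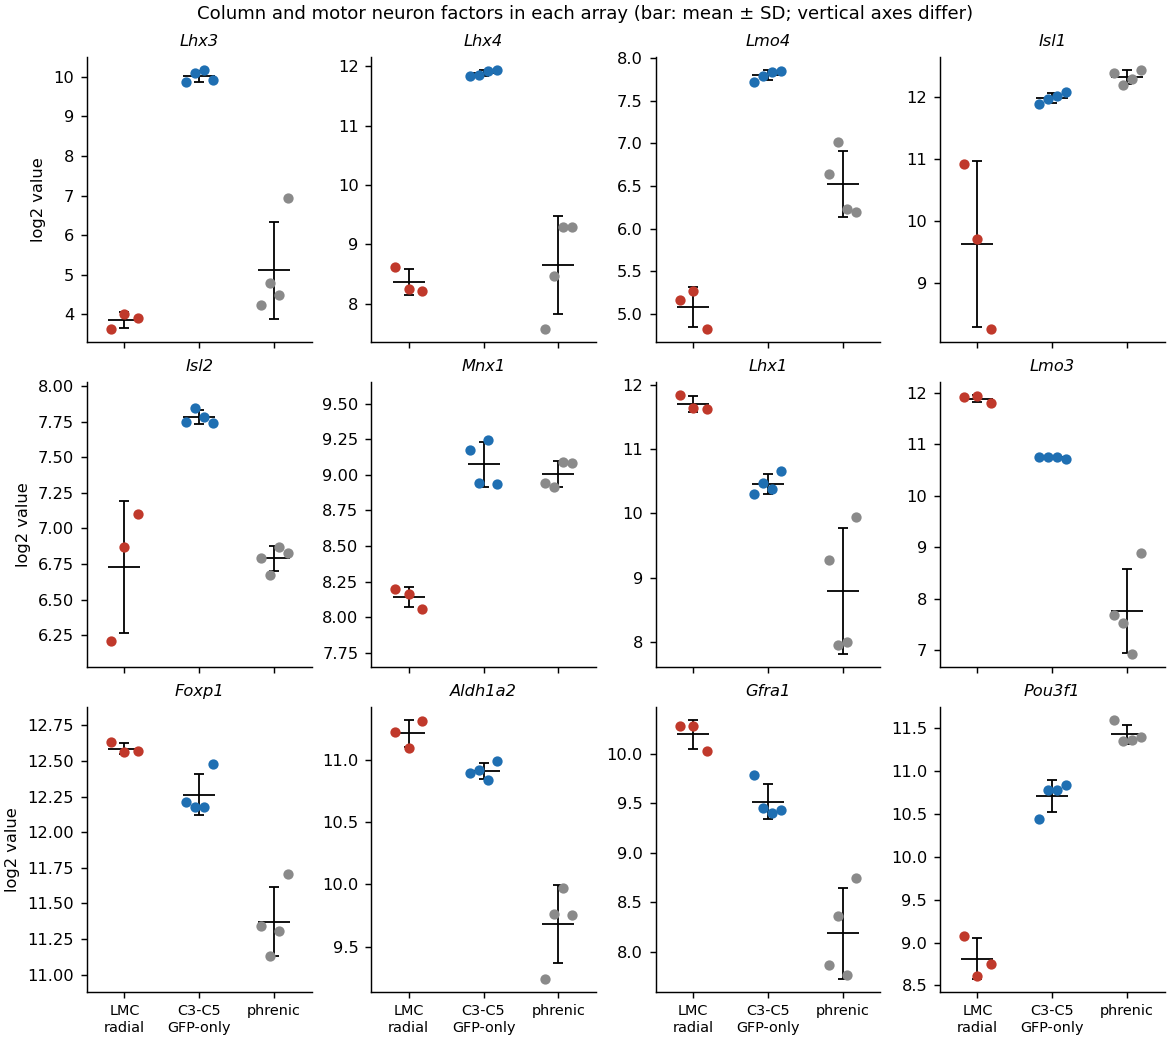
Log2 values of 12 column and motor neuron factors in each array of LMC radial (red, n = 3), C3-C5 GFP-only (blue, n = 4) and phrenic (grey, n = 4) cells; bars are mean ± SD and vertical axes differ between panels. Lhx3, Lhx4, Lmo4, Isl1, Isl2, Mnx1 and Pou3f1 are lower in LMC radial than in C3-C5 GFP-only cells, and Lhx1 and Lmo3 lie above all C3-C5 GFP-only arrays without passing the test in the fit of all arrays.

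The genes that define the lateral motor column were high in both types. Foxp1, the Hox cofactor required for LMC identity, read 12.63, 12.56 and 12.57 in LMC radial and 12.21, 12.18, 12.18 and 12.48 in C3-C5 GFP-only arrays. The LMC radial values were the higher ones without overlap, but the difference of 0.32 ± 0.14 (SE) did not pass (adjusted p = 0.229); 1 of the 8 Foxp1 probe sets did, at 0.96 (adjusted p = 0.024). Aldh1a2 read 11.23, 11.10 and 11.31 against 10.90, 10.92, 10.83 and 10.99 (0.30 ± 0.16 (SE), adjusted p = 0.306). For these probe sets the 95% interval of the difference reached from 0.01 to 0.63 for Foxp1 and from -0.04 to 0.65 for Aldh1a2.

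Of the 16 measured genes of the lateral column list, none was higher at the threshold and 3 were lower, against 1.7% and 2.03% of all genes. In 7 all LMC radial arrays lay above all C3-C5 GFP-only arrays, against 11.2% of all genes, and the median difference was 0.34. Gfra1, the GDNF co-receptor, read 10.28, 10.28 and 10.03 against 9.78, 9.45, 9.41 and 9.43, which passed with both types alone (adjusted p = 0.0211) and without phrenic replicate 4 (adjusted p = 0.0386), but not with all arrays (adjusted p = 0.116). Epha4, the Eph receptor that repels lateral LMC axons from the ventral limb, read 11.69, 11.60 and 11.77 against 11.16, 11.10, 11.18 and 11.35, with adjusted p = 0.0638 in the fit of all arrays, 0.0316 with both types alone and 0.043 without phrenic replicate 2. For Epha4, 1 of 5 probe sets was higher. Sema3e, a semaphorin expressed in subsets of motor pools, read 7.14, 6.64 and 6.53 against 6.08, 5.54, 5.31 and 5.01, with 0.0683, 0.0219 and 0.0309 by the same fits. Ret, the GDNF receptor kinase, differed by 0.35 (adjusted p = 0.0779), and Etv4, a GDNF-induced pool factor, by 0.68 (adjusted p = 0.34) with overlapping arrays.

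The 3 lower genes of that list were Pou3f1, Crabp1 and Rarb. Pou3f1 (SCIP), a POU factor of forelimb motor pools and of phrenic neurons, read 9.07, 8.61 and 8.76 against 10.43, 10.77, 10.77 and 10.84 (-1.89 ± 0.14 (SE), adjusted p = 0.000105), with no overlap and a phrenic mean of 11.42. Crabp1, a cytoplasmic retinoic acid binding protein, read 7.56, 8.54 and 7.15 against 10.45, 10.27, 10.53 and 10.55 (-2.70 ± 0.32 (SE), adjusted p = 0.00182). Rarb, a retinoic acid receptor, differed by -0.92 (adjusted p = 0.0415), and the call was lost without any single LMC radial or C3-C5 GFP-only array or phrenic replicate 2 or 3 (adjusted p up to 0.14).

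Along the Hox clusters, 5 of 6 measured Hox4 and Hox5 genes were lower in LMC radial cells, against 2.03% of all genes. In groups 9 to 13, 2 of 14 genes, Hoxc9 and Hoxa9, were higher, against 1.7% of all genes. Hoxc9, a Hox factor of thoracic levels that represses LMC identity, showed the largest gain of any gene called higher. It (probe set 1449867_at) read 9.01, 9.42 and 9.44 in LMC radial arrays and 5.10, 4.10, 4.41 and 5.07 in C3-C5 GFP-only arrays. The C3-C5 GFP-only values lay near or under the limit of 5, higher in replicates 1 and 4 than in 2 and 3. The difference was 4.62 ± 0.25 (SE), at least 19.0-fold higher (adjusted p = 1.59e-05). Hoxa9 read 9.26, 9.38 and 8.37 against 7.08, 6.18, 5.98 and 6.83, a difference of 2.48 ± 0.51 (SE) (adjusted p = 0.0257), and the call was lost without LMC radial replicate 1 or 2 or C3-C5 GFP-only replicate 2 or 3 (adjusted p up to 0.0942). The C3-C5 GFP-only arrays with the higher Hoxa9 values were again replicates 1 and 4. With the Actb difference as a covariate Hoxa9 did not pass (adjusted p = 0.124). As the mean of its probe sets Hoxa9 differed by 1.47 (adjusted p = 0.0456).

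The other 12 measured genes of these groups did not pass. Hoxb9 ran the other way, at 7.42, 8.53 and 7.34 against 8.64, 8.61, 8.74 and 8.73 (-0.91 ± 0.37 (SE), adjusted p = 0.203), with LMC radial replicate 2 close to the C3-C5 GFP-only values and replicates 1 and 3 well below. Hoxa10 and Hoxd10, which mark lumbar levels, stayed dim, with means of 3.85 and 3.37 in LMC radial and 2.96 and 2.77 in C3-C5 GFP-only arrays. Hoxa10 had an adjusted p of 0.0749, of 0.0391 with both types alone and of 0.0409 without phrenic replicate 3. Hoxd10 had 0.0658, and 0.0275 without LMC radial replicate 2. Hoxc8, a factor of caudal brachial levels, read 12.46, 12.22 and 12.24, against 11.45, 9.52, 9.86 and 11.10 in C3-C5 GFP-only arrays. All LMC radial values were higher, and C3-C5 GFP-only replicates 2 and 3 lay far below replicates 1 and 4. The difference of 1.82 ± 0.76 (SE) had an adjusted p of 0.213 with all arrays and of 0.0401 with both types alone.

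The Hox4 and Hox5 genes had a median difference of -1.05. Hoxb5 read 8.88, 8.86 and 8.52 against 10.30, 10.76, 10.73 and 10.56 (-1.83 ± 0.15 (SE), 3.56-fold lower, adjusted p = 0.000173). Hoxa4 read 6.91, 7.18 and 7.36 against 8.51, 8.68, 8.79 and 8.59 (-1.49 ± 0.14 (SE), adjusted p = 0.000455), and Hoxa5, which with Hoxc5 sustains phrenic motor neurons, read 9.50, 9.54 and 9.64 against 10.17, 10.46, 10.60 and 10.34 (-0.83 ± 0.14 (SE), adjusted p = 0.00858). In none of these did the groups overlap. Hoxc5 and Hoxb4 were lower by smaller margins over their error, at -0.67 ± 0.13 (SE) (adjusted p = 0.0179) and -1.26 ± 0.27 (SE) (adjusted p = 0.0298). For Hoxc5, the call was lost without any single LMC radial array or C3-C5 GFP-only replicate 2 or 3 (adjusted p up to 0.0652). For Hoxb4, the call was lost without any single LMC radial array or C3-C5 GFP-only replicate 2 or 3 (adjusted p up to 0.0974). Hoxc4 was the exception, at 11.31, 11.24 and 11.35 against 11.10, 11.17, 11.20 and 11.31 (0.11 ± 0.10 (SE), adjusted p = 0.614). Over probe sets, Hoxb4 differed by -0.71 (adjusted p = 0.02), and as the mean of its 3 probe sets Hoxc5 did not pass (-0.44, adjusted p = 0.0585).

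Among Hox1 to Hox3 genes 2 of 7 were lower, against 2.03% of all genes. These were Hoxd3 (-1.43 ± 0.26 (SE), adjusted p = 0.0152) and Hoxa2 (-1.09 ± 0.22 (SE), adjusted p = 0.0213). For Hoxd3, the call was lost without LMC radial replicate 1 or 3 or C3-C5 GFP-only replicate 3 (adjusted p up to 0.0666). It was also lost with the Actb difference as a covariate (adjusted p = 0.0693). For Hoxa2, the call was lost without LMC radial replicate 1 or 3 or C3-C5 GFP-only replicate 2 or 3 (adjusted p up to 0.0791). Hoxb2, Hoxa3 and Hoxb3 had differences of -0.42, -0.22 and -0.23 that did not pass, and 1 dimmer of the 4 Hoxa3 probe sets was higher, at 0.98 (adjusted p = 0.00539), so the Hoxa3 probe sets disagree. In paralog groups 6 to 8, 2 of 6 measured genes were lower. Hoxb6 read 7.43, 7.25 and 6.25 against 8.26, 8.72, 8.52 and 8.26 (-1.46 ± 0.26 (SE), adjusted p = 0.012). With the Actb difference as a covariate Hoxb6 did not pass (adjusted p = 0.067). Hoxd8 differed by -1.32 ± 0.25 (SE) (adjusted p = 0.0176), and the call was lost without LMC radial replicate 1 or 2 or C3-C5 GFP-only replicate 2 or 3 (adjusted p up to 0.0732). Hoxc6, Hoxa7 and Hoxb7 had differences of 0.11, 0.13 and 0.61 that did not pass, with adjusted p from 0.0805 for Hoxb7 to 0.773 for Hoxa7. Of 8 Hox cofactors, the homeodomain protein Pknox2 was lower (-1.06 ± 0.21 (SE), adjusted p = 0.0232), and the call was lost without C3-C5 GFP-only replicate 2, 3 or 4 (adjusted p up to 0.0713). Meis1 differed by -0.81 (adjusted p = 0.139 with all arrays and 0.0322 with both types alone) and Pbx3 by -0.17 (adjusted p = 0.307). Pknox2 differed by -0.55 over its probe sets (adjusted p = 0.0262).

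**Figure D3:**
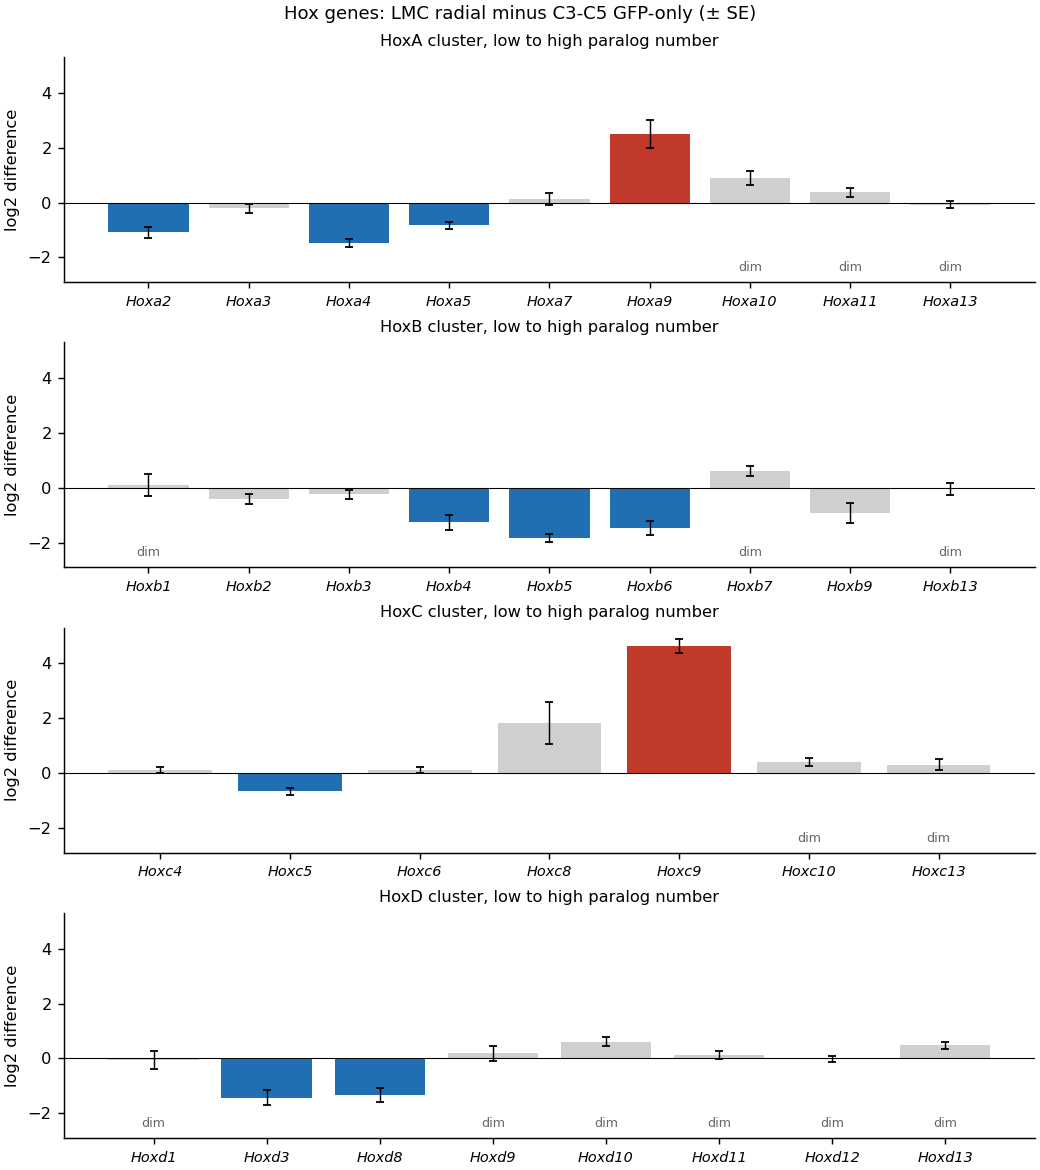
Log2 difference ± SE of every measured Hox gene, LMC radial minus C3-C5 GFP-only, by cluster from low to high paralog number; red and blue bars passed the test, grey bars did not, and "dim" marks genes with both group means under 5. The bars of the Hox4 and Hox5 genes point down except Hoxc4, and the tallest upward bars are Hoxc9 at 4.62 and Hoxa9 at 2.48.

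Several other transcription factors were among the genes that fell most. Sp8, a zinc finger factor, read 4.66, 5.02 and 5.22 against 9.48, 10.17, 9.96 and 9.86 (-4.90 ± 0.31 (SE), at least 27.6-fold lower, adjusted p = 3.99e-05). St18, of the Myt1 family, read 6.31, 6.60 and 6.52 against 9.42, 9.96, 10.07 and 9.92 (-3.36 ± 0.25 (SE), adjusted p = 0.000106). Zfpm2 (Fog2), a cofactor of GATA proteins, read 4.67, 4.78 and 4.82 against 8.0, 8.16, 8.14 and 7.73 (-3.25 ± 0.25 (SE), adjusted p = 0.000109). The neuronal helix-loop-helix factor Neurod2 read 4.24, 4.44 and 4.66 against 7.99, 7.94, 7.98 and 6.88 (-3.25 ± 0.42 (SE), adjusted p = 0.00252). None of these overlapped, and in C3-C5 GFP-only cells all were clearly above the array medians. Over all probe sets the mean differences of Neurod2 and Zfpm2 were -1.82 and -1.81, and both passed.

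In the list of motor pool and late motor neuron factors, 10 of 38 measured genes were lower and 1 was higher, against 2.03% and 1.7% of all genes. The list median was -0.12. Besides Sp8, St18, Neurod2, Nkx6-1 and Pou3f1, the lower genes included Bcl11a (Ctip1), at 9.29, 9.13 and 9.23 against 10.62, 10.60, 10.63 and 10.67 (-1.41 ± 0.13 (SE), adjusted p = 0.00038), and Zfhx4, at 9.08, 9.28 and 8.90 against 10.26, 10.58, 10.72 and 10.98 (-1.55 ± 0.16 (SE), adjusted p = 0.000725). The higher gene was Tshz3, a teashirt zinc finger factor (0.58 ± 0.11 (SE), adjusted p = 0.0176), and the call was lost without any single LMC radial array (adjusted p up to 0.0639). Outside that list, Zbtb16 (PLZF) read 7.01, 6.88 and 7.25 against 5.31, 5.42, 4.90 and 5.16 and was higher by 1.85 ± 0.16 (SE) (adjusted p = 0.00024). Zbtb16 differed by 0.78 as the mean of its probe sets (adjusted p = 0.00801).

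Iroquois homeobox genes, which sit in 2 clusters, were lower in both. Of the 7 measured genes of the list, Irx1, Irx2, Irx3, Irx5 and Crnde were lower, against 2.03% of all genes, and the median was -1.94. Irx5 read 5.49, 4.54 and 3.83 against 8.45, 8.87, 8.88 and 8.60 (-4.08 ± 0.33 (SE), at least 11.6-fold lower, adjusted p = 0.000145). Crnde, a long noncoding RNA next to Irx5, read 4.57, 4.76 and 4.46 against 8.51, 8.24, 8.28 and 7.86 (-3.63 ± 0.17 (SE), adjusted p = 1.51e-05). Irx3, in the same cluster, read 6.15, 5.90 and 4.67 against 8.46, 8.44, 8.79 and 7.98 (-2.85 ± 0.38 (SE), adjusted p = 0.00278). On the other cluster Irx1 and Irx2 differed by -1.94 ± 0.31 (SE) (adjusted p = 0.00733) and -1.48 ± 0.20 (SE) (adjusted p = 0.00312). With values under 5 raised to 5, Irx1 differed by -0.449 and did not pass (adjusted p = 0.444). All 5 groups of arrays were separate, and LMC radial replicate 3 was the lowest for Irx5, Irx3 and Crnde. Irx6 had a difference of -1.02 between dim values (adjusted p = 0.0568), which passed without C3-C5 GFP-only replicate 2 or phrenic replicate 4 (adjusted p down to 0.0331).

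Adhesion molecules moved in both directions. The IgLON protein Ntm (neurotrimin) read 10.43, 10.36 and 10.53 against 8.83, 8.66, 8.71 and 8.75 (1.70 ± 0.22 (SE), 3.25-fold higher, adjusted p = 0.00239), and all 3 of its probe sets were higher. Ncam2, an immunoglobulin adhesion molecule, read 9.27, 9.55 and 9.65 against 8.10, 7.96, 7.74 and 8.03 (1.53 ± 0.20 (SE), adjusted p = 0.00241). Dscam, which mediates self-avoidance, differed by 1.16 ± 0.14 (SE) (adjusted p = 0.00164), and the delta protocadherin Pcdh19 by 1.08 ± 0.16 (SE) (adjusted p = 0.00565). Nectin3 was lower, at 5.06, 5.57 and 5.92 against 7.28, 7.89, 7.87 and 7.86 (-2.21 ± 0.26 (SE), adjusted p = 0.00155). None of these groups overlapped. Of the 5 Dscam probe sets 1 was called, and as the mean of its 5 probe sets Dscam did not pass (0.38, adjusted p = 0.0952). Nectin3 differed by -0.56 over its 6 probe sets, 1 of which was called (adjusted p = 0.0188).

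By list, 1 of 10 delta protocadherins was higher and none lower, against 1.7% and 2.03% of all genes. Of the 10, 6 were non-overlapping upwards, against 11.2% of all genes, and the list median was 0.39. Of 17 classical cadherins none was higher and Cdh10 (-1.20 ± 0.22 (SE), adjusted p = 0.0141) and Cdh9 (-1.46 ± 0.33 (SE), adjusted p = 0.0376) were lower, with a median of 0.13. For Cdh10, the call was lost without C3-C5 GFP-only replicate 3 (adjusted p = 0.0552). For Cdh9, the call was lost without any single LMC radial or C3-C5 GFP-only array (adjusted p up to 0.133). With values under 5 raised to 5, Cdh9 differed by -0.53 and did not pass (adjusted p = 0.891). Cdh8 read 6.44, 6.28 and 6.28 against 4.55, 4.60, 4.74 and 4.31, with adjusted p = 0.0736 over all arrays, 0.000362 with both types alone and 0.00274 without phrenic replicate 4. Of 14 IgLON and contactin genes, Ntm was higher and Cntn1 lower (-1.49 ± 0.31 (SE), adjusted p = 0.0255), and for Cntn1 the call was lost without LMC radial replicate 1 or 2 or C3-C5 GFP-only replicate 2, 3 or 4 (adjusted p up to 0.0941). Cntn3 and Cntnap4 had all LMC radial arrays above the others, with differences of 1.38 and 1.08, which passed with both types alone (adjusted p = 0.0077 and 0.00511) and not with all arrays (adjusted p = 0.0528 and 0.0826). Cntn3 also passed without phrenic replicate 1, 3 or 4 (adjusted p down to 0.0137) and Cntnap4 without phrenic replicate 4 (adjusted p = 0.00379). Of 15 genes of the Ncam and L1 families, 2 were higher and 1 lower, with a median of -0.11. Further, as the mean of its 4 probe sets Cdh10 did not pass (-0.86, adjusted p = 0.1), and as the mean of its 3 probe sets Cntn1 did not pass (-0.82, adjusted p = 0.0732).

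Of 13 Eph receptors, which bind ephrins in axon guidance, 3 were lower and none higher, against 2.03% and 1.7% of all genes. The list median was -0.06. Epha5 read 5.73, 5.78 and 5.36 against 8.77, 9.01, 9.05 and 8.34 (-3.17 ± 0.18 (SE), 8.99-fold lower, adjusted p = 1.59e-05), and all 4 of its probe sets were lower. Ephb1 read 6.34, 5.58 and 4.98 against 8.05, 7.86, 7.82 and 7.42 (-2.15 ± 0.28 (SE), adjusted p = 0.00278). The third was Epha10 (-0.70, adjusted p = 0.0231), and the call was lost without LMC radial replicate 2 or 3 or C3-C5 GFP-only replicate 2 or 3 (adjusted p up to 0.0851). None of 8 ephrins, the Eph ligands, passed, and their median was 0.34.

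Unc5c, a netrin receptor that mediates repulsion, read 10.23, 9.97 and 9.48 against 11.19, 11.19, 11.13 and 11.02 (-1.24 ± 0.17 (SE), adjusted p = 0.00328), and both probe sets were lower. Its partner receptor Dcc differed by -0.64 (adjusted p = 0.0207), the Dcc ligand Draxin by -1.05 (adjusted p = 0.0221) and the Robo ligand Slit3 by -1.08 (adjusted p = 0.031). These made 4 lower and no higher genes among 21 of the Slit, Robo and netrin list, against 2.03% and 1.7% of all genes. The list median was -0.13. For Dcc, the call was lost without LMC radial replicate 2 or 3 or C3-C5 GFP-only replicate 2, 3 or 4 (adjusted p up to 0.0767). For Draxin, the call was lost without any single LMC radial array or C3-C5 GFP-only replicate 2 or 3 (adjusted p up to 0.0783). For Slit3, the call was lost without any single LMC radial or C3-C5 GFP-only array (adjusted p up to 0.109). Slit1 read 8.35, 8.43 and 8.69 against 8.01, 8.11, 8.04 and 7.92 (adjusted p = 0.0638 over all arrays, 0.0469 with both types alone, 0.0476 without phrenic replicate 4). Over its probe sets Draxin differed by -0.59 (adjusted p = 0.0115).

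Of 20 semaphorins, Sema3d was lower and Sema5a higher, against 2.03% and 1.7% of all genes, with a median of -0.03. Sema3d, a secreted repellent, read 4.88, 3.86 and 2.99 against 6.39, 6.96, 7.05 and 7.18, at least 3.72-fold lower (-2.99 ± 0.45 (SE), adjusted p = 0.00585). In the fit with values under 5 raised to 5, which gives this fold, Sema3d did not pass (adjusted p = 0.0704). Its LMC radial arrays spread widely, with replicate 3 lowest, and stayed below all C3-C5 GFP-only arrays. Sema5a differed by 0.71 ± 0.16 (SE) (adjusted p = 0.0393), and the call was lost without any single LMC radial or C3-C5 GFP-only array (adjusted p up to 0.132). Of 11 plexins and neuropilins, the semaphorin 7A receptor Plxnc1 was lower (-1.55 ± 0.26 (SE), adjusted p = 0.00932), and the median was -0.03. Sema3d differed by -1.45 as the mean of its probe sets (adjusted p = 0.00536). Further, as the mean of its 4 probe sets Sema5a did not pass (0.56, adjusted p = 0.178), and as the mean of its 6 probe sets Plxnc1 did not pass (-0.41, adjusted p = 0.121).

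**Figure D4:**
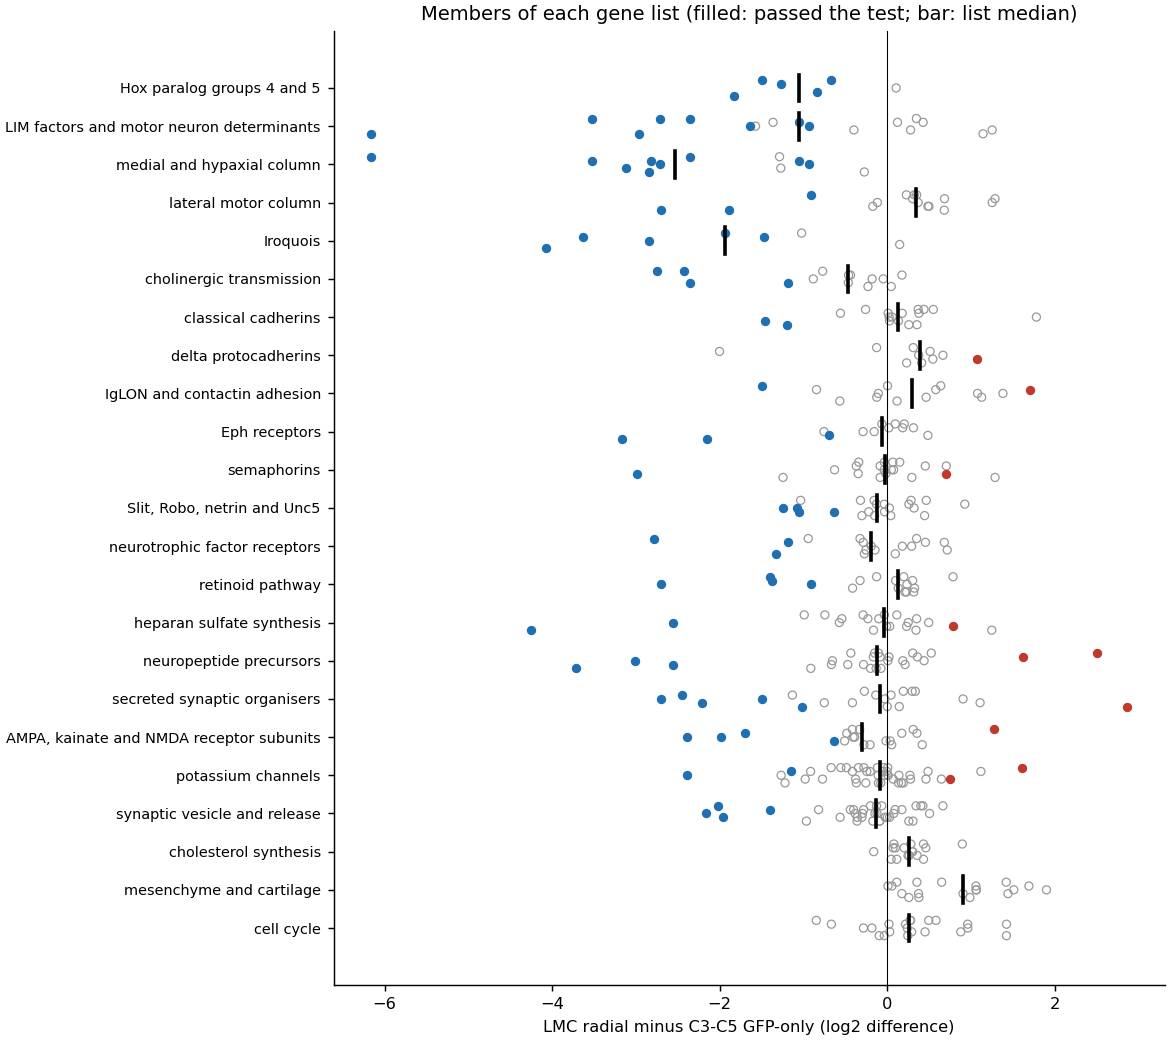
Log2 differences of the measured members of 23 gene lists, LMC radial minus C3-C5 GFP-only; filled points passed the test (red higher, blue lower), open points did not, and the bar is the list median. The medial and hypaxial column list lies furthest left, with a median of -2.53, and the mesenchyme and cartilage list furthest right, at 0.91, with no member that passed.

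Heparan sulfate chains bind guidance and growth factors, and 2 of the enzymes that sulfate them were lower. Hs3st4, a 3-O-sulfotransferase, read 5.05, 4.71 and 4.07 against 8.58, 8.80, 8.89 and 9.21 (-4.26 ± 0.22 (SE), at least 14.4-fold lower, adjusted p = 1.59e-05). The 6-O-sulfotransferase Hs6st2 read 5.75, 4.89 and 5.28 against 7.86, 7.84, 7.89 and 7.89 (-2.56 ± 0.22 (SE), adjusted p = 0.000213). Glce, the glucuronyl epimerase, was higher by 0.78 ± 0.18 (SE) (adjusted p = 0.0364), and the call was lost without any single LMC radial or C3-C5 GFP-only array (adjusted p up to 0.123). These were the 3 of 21 synthesis genes that passed, where 2.03% of all genes were lower and 1.7% higher, and the list median was -0.03. Further, as the mean of its 4 probe sets Hs6st2 did not pass (-0.60, adjusted p = 0.0611), and as the mean of its 3 probe sets Glce did not pass (0.34, adjusted p = 0.295). The call of Hs6st2 rests on 1 probe set.

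Of 15 tenascin and perineuronal matrix genes, the testican Spock3 was lower (-1.76 ± 0.25 (SE), adjusted p = 0.00409), where 2.03% of all genes were lower and 1.7% higher. Tnr (tenascin R) read 8.34, 7.68 and 7.62 against 6.49, 6.79, 7.08 and 6.52, which passed with both types alone (adjusted p = 0.0175) and without phrenic replicate 1 (adjusted p = 0.049), not with all arrays (adjusted p = 0.147). Of 21 secreted BMP and Wnt modulators, Vwc2l was lower, at 4.63, 4.56 and 4.35 against 6.53, 7.0, 7.01 and 5.94 (-2.10 ± 0.31 (SE), adjusted p = 0.00557). With values under 5 raised to 5, Vwc2l differed by -1.619 and did not pass (adjusted p = 0.0984). Of 12 genes of the insulin-like growth factor pathway, Igfbp5, a binding protein, was lower, at 8.99, 9.39 and 7.92 against 10.56, 10.42, 10.52 and 10.46 (-1.72 ± 0.27 (SE), adjusted p = 0.00716). Igf2, the growth factor itself, read 9.17, 9.36 and 7.38 against 6.19, 6.82, 6.60 and 6.86 (2.02 ± 0.49 (SE), adjusted p = 0.0492). Its LMC radial replicates 1 and 2 were far above replicate 3, and the call was lost without any single C3-C5 GFP-only array, LMC radial replicate 1 or 2 or phrenic replicate 1 or 3 (adjusted p up to 0.168). Further, as the mean of its 2 probe sets Spock3 did not pass (-0.58, adjusted p = 0.0666), and Igf2 differed by 1.10 over its probe sets (adjusted p = 0.0455).

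Of 17 receptors for trophic factors 3 were lower and none higher, against 2.03% and 1.7% of all genes, with a median of -0.19. Met, the receptor of hepatocyte growth factor, read 6.44, 6.28 and 7.29 against 9.51, 9.58, 9.68 and 9.06 (-2.79 ± 0.29 (SE), 6.90-fold lower, adjusted p = 0.00072). Lifr, a receptor of LIF and CNTF, read 9.08, 9.19 and 9.14 against 10.61, 10.40, 10.48 and 10.39 (-1.33 ± 0.12 (SE), adjusted p = 0.000284). Its signalling partner Il6st (gp130) differed by -1.18 ± 0.22 (SE) (adjusted p = 0.0177), and the call was lost without LMC radial replicate 1 or 2 or C3-C5 GFP-only replicate 2 or 3 (adjusted p up to 0.0723). Over their probe sets Met and Lifr differed by -1.39 (adjusted p = 0.00794) and -0.42 (adjusted p = 0.0296).

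Retinoic acid shapes limb motor neurons, and 4 of 17 measured genes of the retinoid pathway were lower, against 2.03% of all genes. None was higher, and the list median was 0.13. Besides Crabp1 and Rarb these were Rxrg, a retinoid X receptor, at 4.21, 4.44 and 4.39 against 5.83, 5.75, 5.87 and 5.45 (-1.38 ± 0.21 (SE), adjusted p = 0.00555), and Cyp26b1, which degrades retinoic acid (-1.40 ± 0.33 (SE), adjusted p = 0.0446). For Cyp26b1, the call was lost without any single LMC radial or C3-C5 GFP-only array or phrenic replicate 1 (adjusted p up to 0.153); for Rarb the values are given above. Stra6, a retinol transporter, read 7.32, 6.62 and 6.73 against 6.46, 6.10, 5.90 and 5.95 (adjusted p = 0.0777 over all arrays, 0.0487 with both types alone and 0.0469 without phrenic replicate 4), and Crabp2 differed by 0.33 (adjusted p = 0.115).

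Neuropeptide precursors separated the types in both directions. Tac1, the precursor of substance P, read 5.96, 4.55 and 5.06 against 9.46, 8.95, 8.83 and 8.35 (-3.71 ± 0.48 (SE), 13.1-fold lower, adjusted p = 0.00254). Npy read 4.91, 4.73 and 4.55 against 8.64, 7.85, 7.42 and 7.09 (-3.02 ± 0.32 (SE), adjusted p = 0.000882), and Sst (somatostatin) 5.60, 5.58 and 4.91 against 7.50, 8.27, 8.0 and 7.94 (-2.56 ± 0.39 (SE), adjusted p = 0.00636). All 3 were below 6 in every LMC radial array and above 7 in every C3-C5 GFP-only array. Cartpt, the CART precursor, was higher, at 9.62, 9.53 and 9.79 against 8.25, 7.92, 8.0 and 7.94 (1.62 ± 0.27 (SE), adjusted p = 0.00913). Grp, the gastrin-releasing peptide, read 10.03, 10.01 and 10.22 against 8.73, 7.14, 6.92 and 7.56 (2.50 ± 0.53 (SE), adjusted p = 0.0283). C3-C5 GFP-only replicate 1 came closest to the LMC radial values of Grp without reaching them, and the call was lost without any single LMC radial array or C3-C5 GFP-only replicate 2, 3 or 4 (adjusted p up to 0.0948). With the Actb difference as a covariate Grp did not pass (adjusted p = 0.128). These were the 2 higher and 3 lower of 26 precursors, against 1.7% and 2.03% of all genes, with a median of -0.12. Over its probe sets Tac1 differed by -1.76 (adjusted p = 0.00215).

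The list of secreted synaptic organisers held the gene with the largest gain after Hoxc9, Brinp3. It read 8.37, 7.93 and 8.43 against 5.79, 5.79, 5.24 and 4.70 (2.86 ± 0.39 (SE), 7.26-fold higher, adjusted p = 0.00327), while its relative Brinp1 was lower (-1.49 ± 0.30 (SE), adjusted p = 0.0217); for Brinp1, the call was lost without LMC radial replicate 2 or C3-C5 GFP-only replicate 2 or 3 (adjusted p up to 0.0727). Cbln2 (cerebellin 2) read 8.43, 8.49 and 7.91 against 10.84, 10.84, 10.86 and 10.39 (-2.46 ± 0.18 (SE), adjusted p = 8.28e-05). Nptx2, a pentraxin that clusters AMPA receptors, read 4.19, 4.20 and 4.12 against 6.10, 6.63, 6.64 and 6.15 (-2.21 ± 0.21 (SE), adjusted p = 0.000384). Nxph4, a neurexin ligand, differed by -2.71 ± 0.31 (SE) (adjusted p = 0.00141). Lgi2 was lower by a smaller amount (-1.02, adjusted p = 0.0219), and the call was lost without LMC radial replicate 2 or 3 or C3-C5 GFP-only replicate 2 or 3 (adjusted p up to 0.0823). In all, 5 of 20 organisers were lower and 1 higher, against 2.03% and 1.7% of all genes, with a median of -0.08. Nptx2 differed by -1.11 as the mean of its probe sets (adjusted p = 0.000561).

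Of 20 excitatory receptor subunits 4 were lower and 1 higher, against 2.03% and 1.7% of all genes, with a median of -0.30. Gria3, an AMPA receptor subunit, read 7.0, 6.66 and 6.76 against 9.10, 9.32, 9.37 and 8.97 (-2.39 ± 0.15 (SE), 5.23-fold lower, adjusted p = 3.5e-05). The NMDA receptor subunits Grin2c and Grin2d read 4.73, 4.71 and 4.94 against 6.47, 6.59, 6.62 and 6.28 (-1.70 ± 0.11 (SE), adjusted p = 4e-05) and 6.38, 5.74 and 5.76 against 8.38, 7.99, 8.05 and 7.35 (-1.99 ± 0.27 (SE), adjusted p = 0.00362). Groups did not overlap in any of these. Gria4 differed by -0.63 (adjusted p = 0.0344) and the kainate receptor subunit Grik2 was higher, by 1.27 ± 0.23 (SE) (adjusted p = 0.0136). For Gria4, the call was lost without LMC radial replicate 2 or 3 or C3-C5 GFP-only replicate 1, 2 or 3 (adjusted p up to 0.122). For Grik2, the call was lost without LMC radial replicate 1 or 2 (adjusted p up to 0.0605). Over its probe sets Grin2d differed by -1.01 (adjusted p = 0.0119), and as the mean of its 3 probe sets Gria4 did not pass (-0.76, adjusted p = 0.0998).

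Of 15 inhibitory receptor subunits 2 were higher and none lower, against 1.7% and 2.03% of all genes, with a median of 0.25. Glra2, a glycine receptor subunit of immature neurons, read 11.39, 11.36 and 11.41 against 10.75, 10.41, 10.55 and 10.74 (0.78 ± 0.15 (SE), adjusted p = 0.0182), and the call was lost without any single LMC radial array or C3-C5 GFP-only replicate 2 or 3 (adjusted p up to 0.0656). Gabre was dim in both types, with a difference of 0.95 (adjusted p = 0.00563). Of 16 monoamine and muscarinic receptors, Htr7, Htr2c and Htr5a, all serotonin receptors, were higher and none was lower. Htr7 read 6.15, 6.28 and 6.04 against 5.68, 5.19, 5.22 and 5.13 (0.85 ± 0.20 (SE), adjusted p = 0.0446), and the call was lost without any single LMC radial array or C3-C5 GFP-only replicate 2, 3 or 4 (adjusted p up to 0.137). Htr2c and Htr5a were dim in both types, at differences of 1.26 (adjusted p = 0.0498) and 0.61 (adjusted p = 0.0202). For Htr2c, the call was lost without any single C3-C5 GFP-only array, LMC radial replicate 1 or 2 or phrenic replicate 1 or 2 (adjusted p up to 0.172). For Htr5a, the call was lost without LMC radial replicate 1 or 3 or C3-C5 GFP-only replicate 3 (adjusted p up to 0.0751). Further, as the mean of its 2 probe sets Htr7 did not pass (0.37, adjusted p = 0.139), and as the mean of its 2 probe sets Htr5a did not pass (0.26, adjusted p = 0.146). Htr2c differed by 0.75 as the mean of its probe sets (adjusted p = 0.0462).

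Of 14 genes of cholinergic transmission 4 were lower and none higher, against 2.03% and 1.7% of all genes, with a median of -0.46. The ganglionic nicotinic receptor subunits Chrna3 and Chrnb4 read 4.24, 4.38 and 4.12 against 6.75, 6.74, 7.22 and 7.25 (-2.74 ± 0.33 (SE), adjusted p = 0.00181) and 2.96, 3.15 and 3.22 against 4.83, 6.27, 6.14 and 4.92 (-2.43 ± 0.40 (SE), adjusted p = 0.0087). In C3-C5 GFP-only cells Chrnb4 was higher in replicates 2 and 3 than in 1 and 4, and no array overlapped with LMC radial. With values under 5 raised to 5, Chrna3 and Chrnb4 differed by -1.99 and -0.601 and did not pass (adjusted p = 0.0561 and 0.748). The others were Isl1, given above, and Ache, acetylcholinesterase (-1.19 ± 0.28 (SE), adjusted p = 0.041), for which the call was lost without LMC radial replicate 1 or 2, C3-C5 GFP-only replicate 1, 2 or 3 or phrenic replicate 2 (adjusted p up to 0.136). Chat, choline acetyltransferase, had a difference of -0.77 ± 0.21 (SE) (adjusted p = 0.0747), and passed without C3-C5 GFP-only replicate 4 (adjusted p = 0.0311). Slc18a3 differed by -0.44 (adjusted p = 0.239). Over their probe sets Chrna3 and Chrnb4 differed by -1.11 (adjusted p = 0.0185) and -1.26 (adjusted p = 0.00587).

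Potassium channel genes gave 2 higher and 2 lower of 42, against 1.7% and 2.03% of all genes, with a median of -0.09. Kcnc1, the Kv3.1 channel of fast firing neurons, read 5.69, 5.67 and 5.55 against 8.43, 8.28, 8.10 and 7.31 (-2.39 ± 0.25 (SE), 5.25-fold lower, adjusted p = 0.000704). Kcnab1, a Kv channel beta subunit, read 10.14, 10.17 and 10.32 against 8.99, 8.42, 8.44 and 8.56 (1.60 ± 0.18 (SE), adjusted p = 0.00123). Kcnip1 was higher by 0.75 (adjusted p = 0.0351) and Kcnn2 lower (-1.14 ± 0.27 (SE), adjusted p = 0.0445). For Kcnip1, the call was lost without any single LMC radial array or C3-C5 GFP-only replicate 2, 3 or 4 (adjusted p up to 0.108). For Kcnn2, the call was lost without any single LMC radial or C3-C5 GFP-only array or phrenic replicate 1 (adjusted p up to 0.147). Of 22 sodium and calcium channel genes, the T-type calcium channel Cacna1g was lower (-1.81 ± 0.36 (SE), adjusted p = 0.0231), and the call was lost without any single LMC radial array or C3-C5 GFP-only replicate 2 or 3 (adjusted p up to 0.0791). Over its probe sets Kcnc1 differed by -0.96 (adjusted p = 0.00122), and as the mean of its 4 probe sets Kcnip1 did not pass (0.30, adjusted p = 0.419).

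Of 36 genes of synaptic vesicles and release 4 were lower and none higher, against 2.03% and 1.7% of all genes, with a median of -0.14. Cadps2, a priming factor of dense core vesicles, read 5.78, 5.74 and 6.12 against 7.97, 7.66, 7.92 and 8.07 (-2.02 ± 0.14 (SE), adjusted p = 4.75e-05). Syt13, a synaptotagmin, read 6.96, 6.70 and 6.00 against 8.40, 8.62, 8.42 and 8.61 (-1.96 ± 0.23 (SE), adjusted p = 0.00152). Synpr (synaptoporin) and Syt2 differed by -2.16 (adjusted p = 0.0118) and -1.40 (adjusted p = 0.039). For Synpr, the call was lost without LMC radial replicate 1 (adjusted p = 0.0509). For Syt2, the call was lost without any single LMC radial array, C3-C5 GFP-only replicate 1, 2 or 3 or phrenic replicate 2 (adjusted p up to 0.141). Of 27 neurofilament and axonal motor genes, 2 were lower and none higher, with a median of -0.05: the neuronal dynein intermediate chain Dync1i1, at 6.18, 5.96 and 4.72 against 7.96, 8.38, 8.11 and 7.85 (-2.45 ± 0.30 (SE), adjusted p = 0.00198), and the kinesin Kif26b (-2.68 ± 0.35 (SE), adjusted p = 0.00276). Prph differed by -0.05 (adjusted p = 0.874). Over their probe sets Syt13 and Syt2 differed by -1.0 (adjusted p = 0.00365) and -0.51 (adjusted p = 0.0187).

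The remaining genes among the 15 largest differences in each direction belong to none of these groups. Lower were Dgkk, a diacylglycerol kinase (-3.41 ± 0.44 (SE), adjusted p = 0.00243), Abcc8, the sulfonylurea receptor of ATP-sensitive potassium channels (-3.34 ± 0.32 (SE), adjusted p = 0.000465), Slc35d3, a nucleotide sugar transporter family member (-3.30 ± 0.36 (SE), adjusted p = 0.00109), and Calb1, the calcium buffer calbindin (-3.14 ± 0.38 (SE), adjusted p = 0.00182). With values under 5 raised to 5, Slc35d3 differed by -2.007 and did not pass (adjusted p = 0.0647). Higher were Fgd5, a Cdc42 exchange factor, at 9.93, 9.73 and 10.03 against 8.54, 7.83, 7.72 and 8.01 (1.87 ± 0.21 (SE), adjusted p = 0.00144), and Ccn3 (Nov), a matricellular protein, at 7.83, 8.01 and 8.45 against 6.24, 6.89, 6.21 and 6.20 (1.71 ± 0.28 (SE), adjusted p = 0.009). Smr2, Tspan8 and Krt13 were higher by 2.40 (adjusted p = 0.000465), 2.33 (adjusted p = 0.00321) and 2.32 (adjusted p = 0.00195), each with 1 of its probe sets called. Over probe sets the means were -2.0 for Abcc8, -0.80 for Calb1, 1.05 for Smr2, 0.68 for Tspan8 and 0.68 for Krt13, and these passed.

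Gask1b, Pik3r6, Igll1 and Myct1 completed the higher genes, with differences of 2.24, 2.14, 1.84 and 1.71 and adjusted p of 0.0176, 0.0121, 0.028 and 0.0155. Each depended on single arrays. For Gask1b, the call was lost without LMC radial replicate 1 or 2 or C3-C5 GFP-only replicate 2 or 3 (adjusted p up to 0.0703). For Pik3r6, the call was lost without LMC radial replicate 1 or 2 (adjusted p up to 0.0558). For Igll1, the call was lost without any single LMC radial array or C3-C5 GFP-only replicate 2 or 3 (adjusted p up to 0.0938). For Myct1, the call was lost without LMC radial replicate 1 or 2 or C3-C5 GFP-only replicate 2 (adjusted p up to 0.0656). Over probe sets Pik3r6, Igll1 and Myct1 differed by 1.29, 0.90 and 0.66 and passed, and as the mean of its 2 probe sets Gask1b did not pass (1.14, adjusted p = 0.0516). With values under 5 raised to 5, Pik3r6 and Myct1 differed by 0.715 and 0.97 and did not pass (adjusted p = 0.216 and 0.0557). In that fit Gask1b kept its difference without passing (adjusted p = 0.0984), and Igll1 passed at 1.342 (adjusted p = 0.00088).

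Among general metabolic and stress genes no member passed the test. That held for 17 of cholesterol synthesis (median 0.26, of which 5 were non-overlapping upwards, against 11.2% of all genes), 20 of glycolysis and hypoxia (median 0.05) and 22 immediate early and stress genes (median 0.00). Srebf2, the sterol-sensing transcription factor, differed by 0.46 (adjusted p = 0.0956), the synthase Fdps by 0.90 (adjusted p = 0.127), and the glucose transporter Slc2a1 by 0.63 (adjusted p = 0.113, and 0.0409 without LMC radial replicate 3).

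None of the mesenchyme, endothelial, macrophage, progenitor, cell cycle or red blood cell marker genes passed, but the mesenchyme list was shifted towards higher values in LMC radial arrays. The mean of 19 mesenchyme and cartilage genes was 4.89 to 5.75 in LMC radial arrays and 4.43 to 4.67 in C3-C5 GFP-only arrays. Of the 19, 12 were non-overlapping upwards, against 11.2% of all genes, and the median difference of the list was 0.91. Twist1 read 6.52, 7.23 and 6.00 against 4.02, 4.93, 5.01 and 4.76, with adjusted p = 0.0844 over all arrays, 0.0127 with both types alone and down to 0.0228 without phrenic replicate 2 or 4. Col2a1 (cartilage collagen) and Fn1 (fibronectin) differed by 1.44 (adjusted p = 0.176) and 1.07 (adjusted p = 0.0645), and passed with both types alone (adjusted p = 0.0282 and 0.0269) and without phrenic replicate 4 (adjusted p = 0.0412 and 0.0361). With the mesenchyme list mean as a covariate 161 probe sets were higher and 358 lower. Hoxc9, Lhx3, Irx5, Sp8 and Hs3st4 then still passed, at adjusted p of 0.000578, 0.000693, 0.00224, 0.000693 and 0.0005, while Hoxa9, Grp and Igf2 did not, at 0.202, 0.161 and 0.254.

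The means of the other marker lists differed by less. Endothelium and pericyte genes averaged 4.01 to 4.59 in LMC radial and 3.64 to 4.02 in C3-C5 GFP-only arrays, macrophage genes 3.87 to 4.14 and 3.55 to 3.83, progenitor and glial genes 5.78 to 6.29 and 5.49 to 5.74, and cell cycle genes 5.86 to 6.37 and 5.55 to 5.89. Defining markers Pecam1 and Cdh5 of endothelium were dim in every array, but 2 of the 13 endothelium and pericyte genes had a group mean of at least 5. Flt1 read 4.77, 6.39 and 3.93 in LMC radial and 4.00, 4.38, 3.45 and 3.52 in C3-C5 GFP-only arrays (adjusted p = 0.351). Red blood cell genes ranged from 4.29 in LMC radial replicate 2 to 6.30 in replicate 3, and from 5.17 to 5.65 in C3-C5 GFP-only arrays. Of 20 interneuron genes Gata3 was higher, between dim values (0.59, adjusted p = 0.0445), and of 12 skeletal muscle genes Myod1, also dim (0.90, adjusted p = 0.0399). The share of all genes that were higher was 1.7%. For Gata3, the call was lost without any single LMC radial or C3-C5 GFP-only array or phrenic replicate 2 (adjusted p up to 0.158). For Myod1, the call was lost without any single LMC radial array, C3-C5 GFP-only replicate 2, 3 or 4 or phrenic replicate 3 (adjusted p up to 0.138). Of 8 sensory neuron genes Isl1, which motor neurons share, was lower. The part of other cells in the results was not tested beyond these values.

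**Figure D5:**
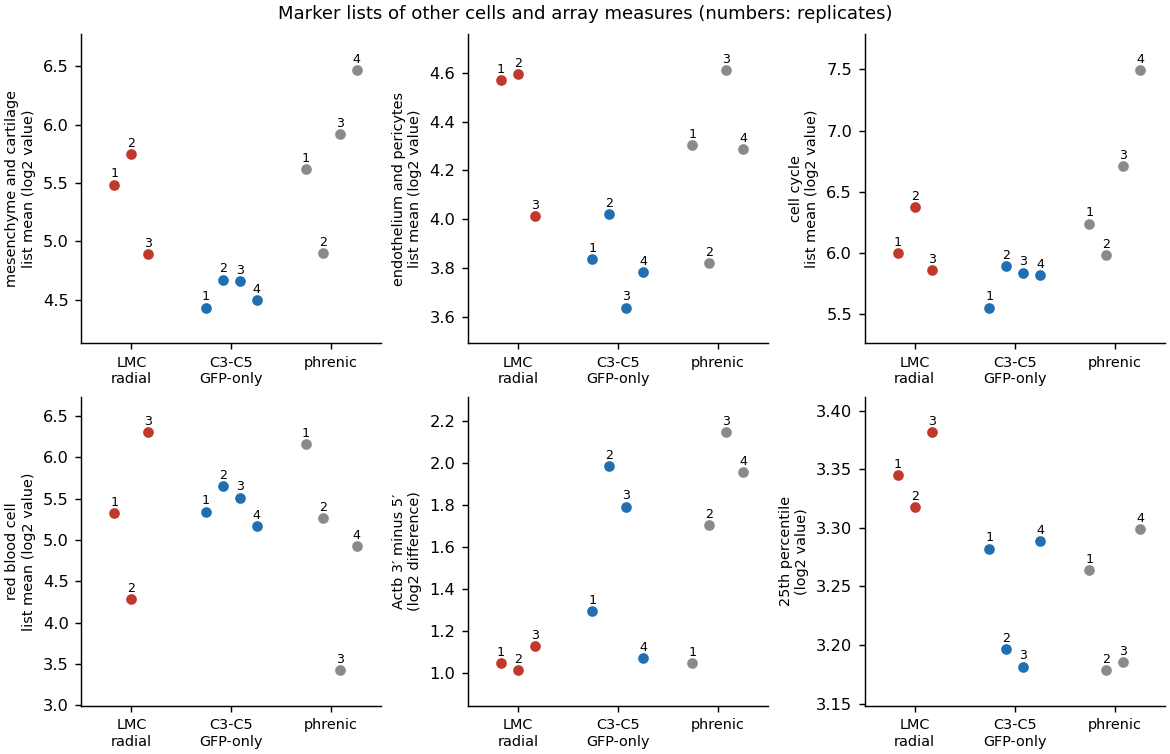
Array means of 4 marker lists, the Actb 3′ minus 5′ difference and the 25th percentile of each array, by type, with replicate numbers beside the points. The mesenchyme and cartilage mean is 4.89 to 5.75 in the LMC radial arrays and 4.43 to 4.67 in the C3-C5 GFP-only arrays, and C3-C5 GFP-only replicates 2 and 3 stand apart in the Actb difference.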

How the data were processed

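RNA of 11 sorted motor neuron samples had been hybridised to Affymetrix arrays. The deposited values are log2 expression summaries per probe set made by the authors with RMA, per the submitters' processing notes; background correction, quantile normalization and probe summary belong to RMA, so all values depend on the arrays normalized together, and the deposited files hold no detection calls. Control probe sets (64) were left out. Of 45037 probe sets, 34945 had 1 gene symbol, 932 several and 9160 none; only those with 1 were named. A mean per cell type was fitted to all 11 arrays with limma 3.58.1 in R 4.3.3, the contrast was LMC radial minus C3-C5 GFP-only, and p-values were adjusted over all probe sets by Benjamini-Hochberg. The fit was tested on simulated data with independent normal noise. Those data hold no effects shared by an array, so the simulation cannot test for them. No array was dropped or imputed. The number of arrays limits the precision.

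Named were the 15 largest differences in each direction among called genes whose arrays did not overlap, genes of the Hox, LIM and lateral column lists, and up to 6 members with the smallest p of each list. Not every gene that these rules reached is given here. Those left out include members that did not pass, such as Neurog2 of the LIM list (-1.36, limma adjusted p = 0.293). Tshz3, Ebf2 and the genes outside lists were added after their values were seen. The comparison and its 47 lists were chosen with earlier results of these data known. Promoter windows come from RefSeq on GRCm38.p6, by gene symbol.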

Additional observations from a re-analysis of the deposited data

Results flagged for a closer look

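In 16 of 176 named values, 1 of the 4 C3-C5 GFP-only arrays lay far from the other 3 by Dixon's test at its usual critical value, which chance gives in about 1 group in 20. Replicate 1 was low for Hoxb3 (8.93, others 9.51 to 9.54), Pou3f1 (10.43, others 10.77 to 10.84), Nectin3 (7.28, others 7.86 to 7.89), Spock3 (9.05, others 9.59 to 9.69), Synpr (6.39, others 7.34 to 7.50) and Slc18a2 (6.61, others 7.40 to 7.49). It was high for Gfra1 (9.78, others 9.41 to 9.45) and Htr7 (5.68, others 5.13 to 5.22). Replicate 2 was high for Ccn3 (6.89, others 6.20 to 6.24) and low for Hoxb7 (2.91, others 3.50 to 3.59) and Ebf2 (7.79, others 7.95 to 7.97). Replicate 3 was high for Irx1 (5.69, others 5.36 to 5.37). Replicate 4 was low for Neurod2 (6.88, others 7.94 to 7.99), Cntnap4 (5.15, others 5.55 to 5.57) and Cbln2 (10.39, others 10.84 to 10.86), and high for Foxp1 (12.48, others 12.18 to 12.21).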

How the results depend on the processing

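The count of 1694 probe sets (847 higher, 847 lower) depended on the setting, and the cause was not tested unless named. Quantile normalization gave 793 higher and 560 lower; leaving out dim probe sets, which tests fewer, 914 in all with 193 higher; a floor at 5, 382 (120 higher, 262 lower); array weights, 6685 (3146 higher, 3539 lower); LMC radial and C3-C5 GFP-only alone, 3676 (1457 and 2219). Without C3-C5 GFP-only and phrenic replicates 2 and 3 together, 98 (33 and 65) passed; with the Actb difference as covariate 550 (223 and 327); with the mesenchyme list mean 519 (161 and 358). Leaving out each array in turn gave 606 to 2654 in all, 281 to 1168 higher and 325 to 1486 lower. Replicate numbers did not pair LMC radial with C3-C5 GFP-only arrays (same-number correlations of deviations 0.043, 0.0499 and -0.0835). LMC radial replicate 2 correlated better with C3-C5 GFP-only replicate 3, at 0.0813. Between C3-C5 GFP-only and phrenic arrays the numbers did go together. Replicates 2 and 3 of both had medians of 4.61 to 4.63, and replicates 1 and 4 of both 4.54 to 4.55. With the replicate block 2401 passed, 1075 higher and 1326 lower. Of 130 named genes that passed, 84 passed whichever array was left out, 130 with both types alone, 117 after quantile normalization, 81 with the floor, 116 as the mean over probe sets, 87 with the Actb difference, 88 with the mesenchyme mean and 40 without replicates 2 and 3, and none turned direction under the alternatives run. Genes that did not pass and turned direction were Hoxa3 (0.01 as the mean of its probe sets), Hoxa7 (-0.049 without replicates 2 and 3 together), Prph (0.04 with centring, 0.056 with the Actb difference, 0.009 with the mesenchyme mean, -0.13 to 0.014 leaving out each array in turn) and Pou4f1 (0.067 with array weights, 0.215 with the replicate block, -0.315 to 0.281 leaving out each array in turn). Dim values limit most genes that were higher.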

Other observations

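Some genes outside the lists separated the types as clearly as the column factors; they were chosen after their values were seen. Ramp3, a protein that modifies the calcitonin receptor, read 3.66, 4.24 and 3.99 in LMC radial and 6.89, 7.28, 7.48 and 6.54 in C3-C5 GFP-only arrays (-3.08 ± 0.23 (SE), limma adjusted p = 9.52e-05). The axon guidance protein Ntng1 (netrin G1) read 5.99, 6.68 and 6.48 against 8.79, 9.31, 9.38 and 8.71 (-2.66 ± 0.23 (SE), adjusted p = 0.00024), and 1 of its 4 probe sets passed. Slc18a2, the vesicular monoamine transporter, read 4.24, 5.03 and 4.52 against 6.61, 7.40, 7.49 and 7.43 (-2.64 ± 0.27 (SE), adjusted p = 0.000699). The secreted proteins Edil3 and Nell1 differed by -2.23 ± 0.16 (SE) (adjusted p = 5.82e-05) and -2.43 ± 0.16 (SE) (adjusted p = 4e-05). The LMC radial arrays lay below all C3-C5 GFP-only arrays in each. Over all probe sets Ntng1, Edil3 and Nell1 differed by -0.82, -1.23 and -1.38, and these passed.

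Among genes that were higher, the receptor kinase Alk read 7.30, 7.16 and 6.88 against 5.93, 5.76, 5.90 and 5.73 (1.28 ± 0.13 (SE), adjusted p = 0.000705), with a phrenic mean of 4.13. Cnih3, an auxiliary subunit of AMPA receptors, read 6.46, 6.11 and 6.09 against 5.21, 5.18, 4.82 and 4.93 (1.18 ± 0.14 (SE), adjusted p = 0.00182). The glycan branching enzyme Gcnt2 and the Wnt pathway protein Dact1 differed by 1.41 ± 0.20 (SE) (adjusted p = 0.00436) and 1.03 ± 0.13 (SE) (adjusted p = 0.0025). The neurotrophin Bdnf read 5.71, 5.37 and 5.42 against 4.38, 4.30, 3.98 and 4.74 (1.15 ± 0.25 (SE), adjusted p = 0.0331), and the call was lost without any single LMC radial array or C3-C5 GFP-only replicate 1, 2 or 3 (adjusted p up to 0.117). Its C3-C5 GFP-only values were all under 5. Over probe sets Gcnt2 and Bdnf differed by 0.46 and 0.74, and both passed. Mycn differed by 0.92 ± 0.20 (SE) (adjusted p = 0.0303), and the call was lost without any single LMC radial array or C3-C5 GFP-only replicate 1, 3 or 4 (adjusted p up to 0.104).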
